A study of Mus musculus with 12 samples.

Results

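Cell cycle and mitosis genes were followed across the neuroendocrine tumors of LSL-MYCN;hGFAP-Cre mice, from the cyclins and kinases of the G1/S transition to the motors of cytokinesis. The list holds 45 genes, and 44 of them were measured, out of 18193 genes with a probe set that carries 1 symbol in the platform annotation. Ccnb1 was the gene without such a probe set. Each gene was read from the probe set with the highest mean over all tumors.

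The study hybridized total RNA of 9 pancreatic tumors and 3 pituitary tumors to Affymetrix mouse arrays, 1 array per tumor. All mice were untreated and carried a MYCN transgene and a luciferase reporter behind a floxed stop cassette, with Cre recombinase driven by the human GFAP promoter in GFAP-positive cells, on a mixed background of the parental strains. Both sites therefore share the transgenes, and age and sex of the single mice are not given in the sources used here. GEO labels the pituitary tumors as brain tumors (numbers 6, 7 and 8), and a mouse could carry tumors at both sites, so that some arrays may share a mouse. Values are log2 signals, normalized between arrays by the authors, and the number of arrays limits their precision. A level was compared between tumors for the same probe set and never between genes.

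Progression through the cell cycle is driven by cyclins that activate cyclin-dependent kinases in turn. E2F transcription factors switch on the genes for DNA replication once the retinoblastoma proteins are phosphorylated, and the later mitotic genes are held silent by the DREAM complex in resting cells and activated by B-MYB and FOXM1 in cycling ones. Transcripts of cell cycle genes are commonly read as markers of cycling cells. MYC family proteins are known to push cells through G1, in part through cyclins, CDK4 and E2F.

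The tissue labels were borne out by defining markers. Of 9 anterior pituitary genes measured, 7 were lower in the pancreatic tumors after adjustment, where list means lay at 4.68 to 5.27 in the pancreatic and 9.11 to 10.94 in the pituitary tumors, and 5 of 8 endocrine pancreas genes were higher. Other tissue was visible in single tumors. The mean of 6 liver genes was 14.07 in pancreatic tumor 2, 12.23 in tumor 4, 12.00 in tumor 3, 9.29 in tumor 11 and 8.13 in tumor 12, against 6.46 to 7.00 in the other pancreatic tumors and 5.55 to 6.49 in pituitary tumors. The mean of 11 acinar genes reached 12.33 in tumor 3, 11.45 in tumor 4 and 9.67 in tumor 10. Tumor 2 also had the lowest endocrine list mean of the pancreatic tumors, at 8.71. Pituitary tumors 6 and 8 had glial list means of 9.95 and 9.43 against 6.51 in pituitary tumor 7. Their neuron list means were 9.29 and 9.00, against 6.46 in tumor 7. Pancreatic tumors 10, 11 and 12 had array means of 5.97 to 5.98, where all other tumors had 6.06 to 6.10. Tumor 5 had the highest array median, 5.69 against 5.45 to 5.61 in all other tumors. Its upper quartile was the lowest, at 7.47, with 7.49 in tumor 10 next. The part of these array differences in the values of single tumors was not tested. The differences and correlations of the list as a whole are therefore also given without tumors 2, 3 and 4 and without tumors 10, 11 and 12.

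The proliferation transcripts varied widely among the pancreatic tumors and little among the pituitary ones. The mean of the 44 genes, each centred on its own mean over the 12 tumors, was 0.97 in pancreatic tumor 3, 0.78 in tumor 2, 0.58 in tumor 11, 0.40 in tumor 4, 0.37 in tumor 9, 0.12 in tumor 12, -0.26 in tumor 1, -0.78 in tumor 5 and -0.86 in tumor 10. The same mean was -0.32, -0.50 and -0.49 in pituitary tumors 6, 7 and 8. Pituitary tumors thus lay below 7 of the 9 pancreatic tumors and above tumors 5 and 10. In bulk RNA of this kind, fewer cycling cells and less of these transcripts per cell cannot be told apart.

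Tumor 3 had the highest signal of the pancreatic tumors in 16 of the 44 genes, tumor 2 in 15 and tumor 11 in 10. The lowest signal fell in tumor 5 in 18 genes and in tumor 10 in 17. Tumor 3 was above the pancreatic median in 40 genes and tumor 2 in 37, whereas tumor 1 was above it in 1, tumor 10 in 3 and tumor 5 in 5. Of the pituitary tumors, tumor 6 was above the pancreatic median in 6 genes, tumor 7 in 5 and tumor 8 in 0. These counts are given without the matching shares over all genes, so they are not read as particular to the list. The median SD of the 44 genes was 0.86 over the pancreatic tumors and 0.23 over the pituitary tumors, where all 18193 genes gave 0.43 and 0.27. The SD was smaller over the 3 pituitary tumors in 43 of the 44 genes, or 97.7%, and in 70.7% of all genes. The exception in the list was Foxm1, in its probe set of highest mean. The 4 pancreatic tumors with the highest mean of the list, numbers 3, 2, 11 and 4, were also those with the most liver transcripts, while tumor 9 combined a mean of 0.37 with the lowest liver mean, 6.46. The part of liver tissue in the levels of single tumors was not tested.

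**Figure D1:**
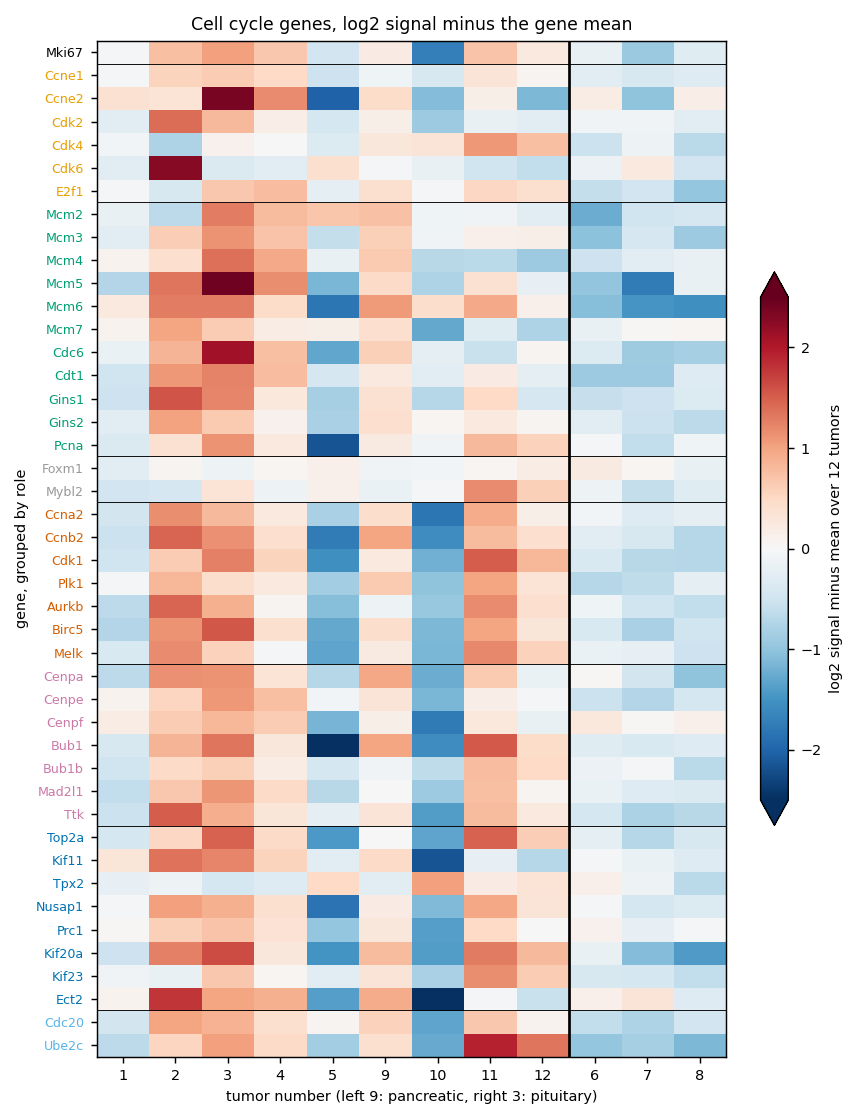
Signal of the 44 measured genes in each tumor, as log2 signal minus the mean of the gene over the 12 tumors, with pancreatic tumors left of the vertical line and pituitary tumors right of it and genes grouped and coloured by role. Tumors 2, 3 and 11 are high in most rows, tumors 5 and 10 are low in most rows of the mitotic groups, and the 3 pituitary columns are pale.

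**Figure D2:**
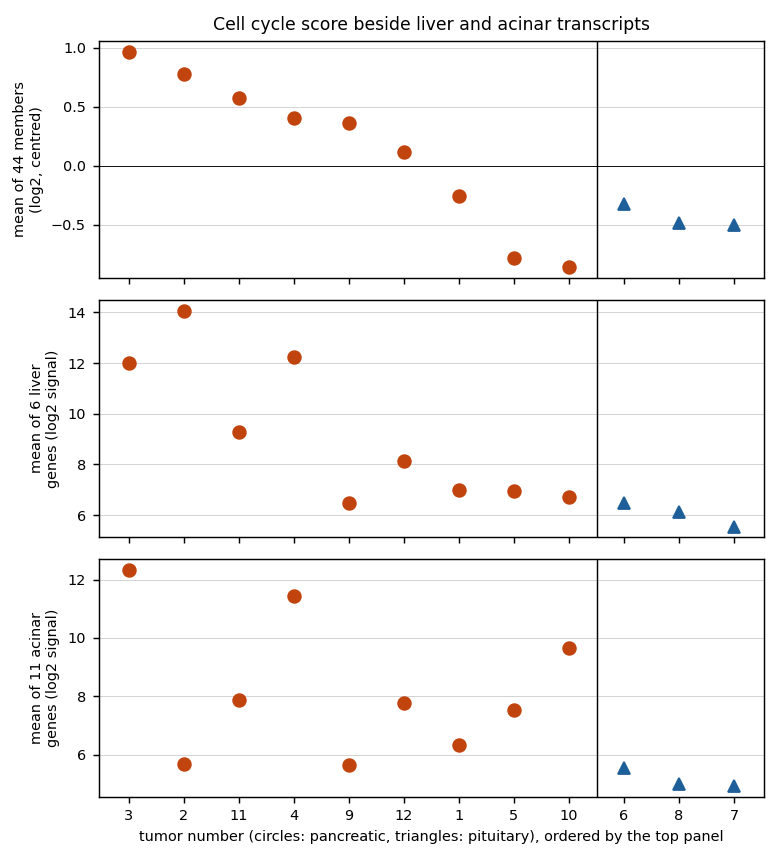
Mean of the 44 genes per tumor (top, log2 signal centred per gene), mean log2 signal of 6 liver genes (middle) and of 11 acinar genes (bottom), with pancreatic tumors (circles) left of pituitary tumors (triangles), each ordered by the top panel. Tumors 3, 2, 11 and 4 lead the top and middle panels, tumor 9 has a top value of 0.37 with a liver mean of 6.46, and the acinar means follow another order.

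Between the sites, 0 of the 44 genes passed limma's test in either direction after Benjamini-Hochberg adjustment over 45037 probe sets, and the smallest adjusted p was 0.0621, for E2f1. The same rule called 1.63% of all genes higher and 4.29% lower in pancreatic tumors. At an unadjusted p under 0.05, 6 genes were higher in pancreatic tumors (E2f1, Mcm2, Mcm3, Mcm6, Cdt1 and Ube2c) and 0 were lower, where the background was 9.53% of genes higher and 14% lower. These are 13.6% of the list, not far from the 9.53% of all genes. Of the 6, 5 serve the G1/S transition or replication licensing, a count too small to be read as a trait of these roles. The direction was nevertheless shared by most genes. The difference, pancreatic minus pituitary, was above 0 in 41 of 44 genes, against 53.1% of all genes, and its median was 0.60 against 0.04 over all genes. Since the genes moved together from tumor to tumor, these counts do not stand for 44 separate observations. Without pancreatic tumors 2, 3 and 4 the median difference was 0.27 and 34 of 44 genes were above 0, with 50.6% of all genes above 0. Without tumors 10, 11 and 12 the median was 0.67 and 43 genes were above 0. Without pituitary tumors 6 and 8 the median was also 0.67 and 39 genes were above 0, with 48.9% of all genes above 0. Several of the single differences described next were smaller by over 1.5 times without tumors 2, 3 and 4, with 0.64 for Mcm5, 0.49 for Cdk1, 0.51 for Ttk, 0.18 for Ccnb2 and 0.094 for Pcna. The difference of Mki67 was 0.29 in that setting, against 0.63 over all tumors (limma adjusted p = 0.502). That of Bub1 was 0.088, against 0.44 over all tumors (limma adjusted p = 0.78). The differences of Cenpf and Ect2 were lower without tumors 2, 3 and 4, at -0.56 and -0.67. Without tumors 10, 11 and 12 the difference of Cdk4 was 0.31, that of Pcna 0.17, that of Ccne2 0.68 and that of Ect2 0.51.

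**Figure D3:**
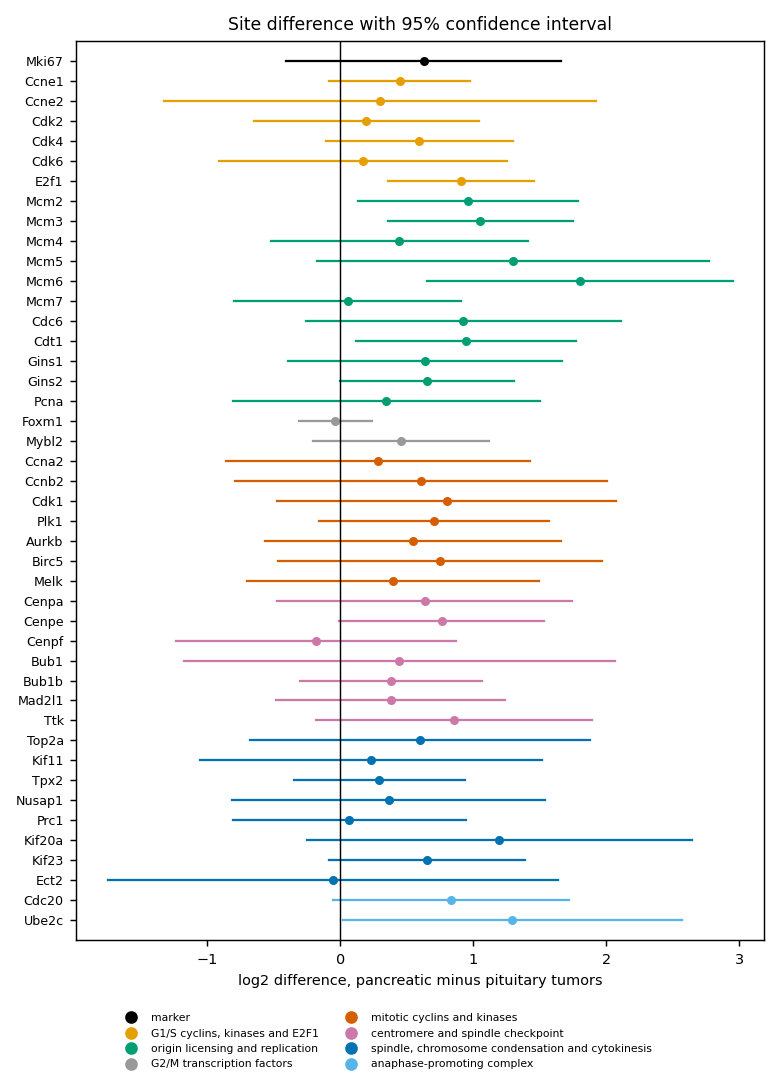
Difference in log2 signal, pancreatic minus pituitary tumors, for each of the 44 genes (points) with its 95% confidence interval from limma (lines), coloured by role. Most points lie right of 0, the largest is Mcm6 at 1.80, and the intervals of E2f1, Mcm2, Mcm3, Mcm6, Cdt1 and Ube2c lie above 0 before adjustment.

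E2f1, the founding member of the E2F activators, was the 1 gene of the list whose sites did not overlap in the probe set with the highest mean. Its signal ranged from 7.04 in tumor 2 over a median of 7.83 to 8.20 in tumor 4 among pancreatic tumors, against 6.83, 6.97 and 6.47 in pituitary tumors 6, 7 and 8. All 9 pancreatic tumors lay above all pituitary tumors, a pattern that 4.21% of all genes showed in this direction. The means were 7.66 ± 0.41 (SD, n = 9) in pancreatic tumors and 6.76 ± 0.26 (SD, n = 3) in pituitary tumors, a difference of 0.91 with a 95% interval of 0.36 to 1.45 and an adjusted p of 0.0621 in limma. It passed the threshold without tumor 2 (0.99, limma adjusted p = 0.028) or without tumor 5 (0.97, limma adjusted p = 0.0472). With each single tumor left out in turn, its limma adjusted p ran from 0.028 to 0.293. The sites overlapped in the other 2 probe sets of E2f1, which had 6 and 8 of the 9 pancreatic tumors above all pituitary tumors and differed by 0.62 and 0.43 (limma adjusted p = 0.416 and 0.199).

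Among the other genes of G1/S, Cdk4, the kinase partner of D-type cyclins, spanned 9.17 in tumor 2 to 11.03 in tumor 11 with a median of 10.05 in pancreatic tumors, against 9.42, 9.83 and 9.27 in pituitary tumors. Its difference was 0.59 (SE 0.32, limma adjusted p = 0.339), and 7 of 9 pancreatic tumors lay above all pituitary ones. Cdk6, which acts beside Cdk4, stayed between 5.54 and 6.55 in 8 pancreatic tumors and reached 8.43 in tumor 2, against 6.01, 6.40 and 5.67 in pituitary tumors. Ccne2, a cyclin that activates CDK2 at the start of S phase, had the largest SD of this group. It ranged from 5.14 in tumor 5 to 9.54 in tumor 3 around a median of 7.50, against 7.35, 6.15 and 7.32 in pituitary tumors, and its difference was 0.30 (SE 0.75, limma adjusted p = 0.86). Ccne1 and Cdk2 differed by 0.45 and 0.20 (limma adjusted p = 0.345 and 0.816).

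The MCM genes encode the ring-shaped helicase that is loaded on origins in G1 with the help of CDC6 and CDT1. Mcm6 had the largest site difference of the list. It lay at 6.83 in pancreatic tumor 5 and between 8.77 and 9.92 in the other 8, with a median of 9.09, against 7.58, 7.16 and 7.11 in pituitary tumors. Tumor 5 alone kept the sites from separating. The means were 9.08 ± 0.95 (SD, n = 9) in pancreatic tumors and 7.28 ± 0.26 (SD, n = 3) in pituitary tumors, a difference of 1.80 with a 95% interval of 0.65 to 2.95 and a limma adjusted p of 0.0769. Without tumor 5 the difference was 2.08 and passed the threshold (limma adjusted p = 0.00148), as did Mcm3 (1.16, limma adjusted p = 0.0414). Tumor 5 was singled out by these same values, so its removal is no independent test. With each single tumor left out in turn, the limma adjusted p of Mcm6 ran from 0.00148 to 0.273.

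Mcm5 ranged from 7.20 in tumor 5 over a median of 8.72 to 10.77 in tumor 3, against 7.36, 6.59 and 8.17 in pituitary tumors. Its difference of 1.30 (SE 0.68, limma adjusted p = 0.319) came with the widest spread of the replication genes. Mcm3 differed by 1.05, Mcm2 by 0.96, Mcm4 by 0.44 and Mcm7 by 0.05 (limma adjusted p = 0.088, 0.184, 0.619 and 0.956). The subunits of this 1 complex thus spanned differences from 0.05 to 1.80 in the probe sets of highest mean. These depended on the probe set. Further probe sets of Mcm7 differed by 0.48, 0.31 and 0.29, and further ones of Mcm6 by 1.91 and 0.41. A further probe set of Mcm2 passed the threshold, at 9.08 ± 0.66 in pancreatic tumors and 7.51 ± 0.22 in pituitary tumors (SD, n = 9 and 3), a difference of 1.57 (SE 0.38, limma adjusted p = 0.035). It was the only one called among 53 further probe sets of the listed genes, where 1.18% of all probe sets were called higher and 3.45% lower. Cdt1 and Cdc6, the loading factors, differed by 0.94 and 0.92 (limma adjusted p = 0.191 and 0.38), and Gins1 and Gins2, subunits of the active helicase, by 0.64 and 0.65 (limma adjusted p = 0.492 and 0.259). Pcna, the sliding clamp of DNA polymerases, lay at 8.85 in tumor 5 and between 10.64 and 12.13 in the other 8 pancreatic tumors, against 10.96, 10.38 and 10.90 in pituitary tumors. Its difference was 0.35 (SE 0.53, limma adjusted p = 0.759), and tumor 5 lay below all other tumors of either site.

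**Figure D4:**
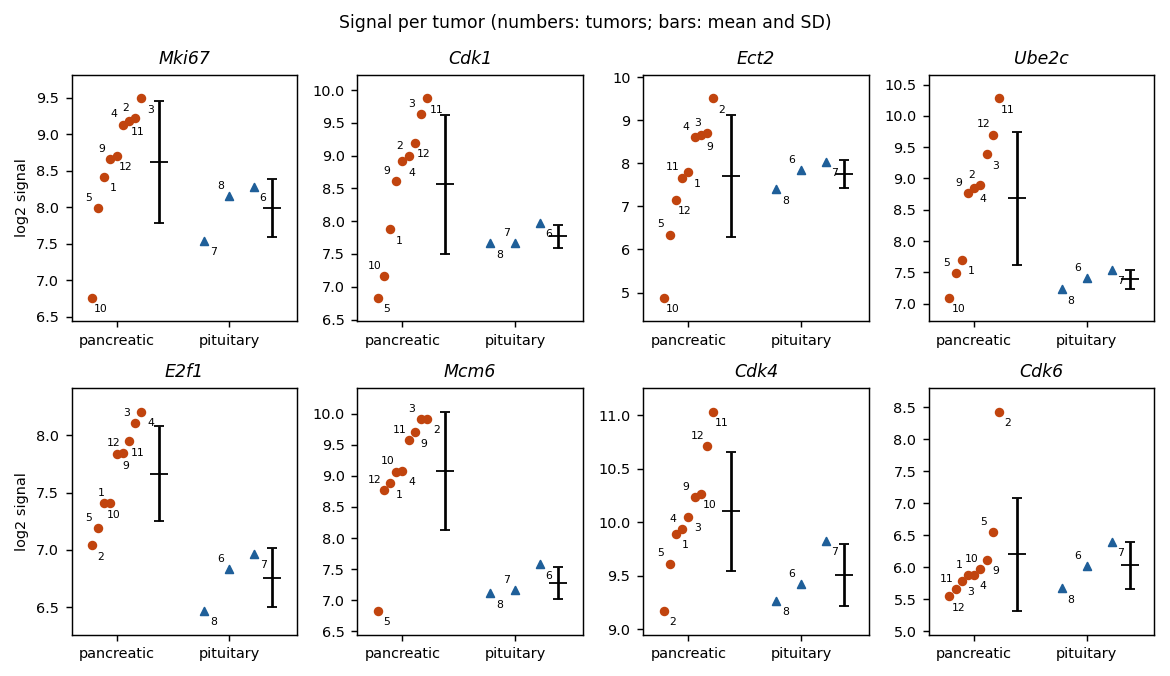
Log2 signal of 8 genes in each tumor, with pancreatic tumors left (circles) and pituitary tumors right (triangles), each point numbered by tumor and bars giving the mean and SD per site. The sites do not overlap in the E2f1 probe set plotted, tumor 5 is the exception for Mcm6 at 6.83, tumor 2 stands alone for Cdk6 at 8.43, and pituitary tumors lie within the pancreatic range for Mki67, Cdk1 and Ect2.

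Mki67, the gene of the Ki-67 proliferation antigen, ranged from 6.76 in tumor 10 over a median of 8.70 to 9.49 in tumor 3, against 8.28, 7.54 and 8.16 in pituitary tumors. Pituitary tumors 6 and 8 lay between the second and the third lowest pancreatic tumors, and pituitary tumor 7 lay above pancreatic tumor 10 alone. Cdk1, the kinase that starts mitosis, ranged from 6.83 in tumor 5 over 8.91 to 9.87 in tumor 11, against 7.98, 7.67 and 7.66 in pituitary tumors, a difference of 0.80 (SE 0.58, limma adjusted p = 0.485). Ccnb2, a cyclin partner of CDK1, ranged from 5.43 in tumor 5 over 7.59 to 8.62 in tumor 2, against 6.92, 6.78 and 6.47 in pituitary tumors, and Ccna2, the cyclin of S phase and G2, from 6.35 in tumor 10 over 8.41 to 9.33 in tumor 2, against 8.09, 7.84 and 7.92. Both had 6 of 9 pancreatic tumors above all pituitary ones, with differences of 0.61 and 0.28 (limma adjusted p = 0.643 and 0.802). Plk1, Aurkb with its partner Birc5, and Melk differed by 0.40 to 0.75, with limma adjusted p values from 0.357 up to 0.705.

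The spindle checkpoint delays anaphase until all chromosomes are attached. Bub1, one of its kinases, had the largest SD of the centromere and checkpoint genes, with 3.92 in tumor 5, a median of 6.86 and 7.95 in tumor 11, against 6.10, 6.04 and 6.10 in pituitary tumors. Its pituitary SD of 0.04 compares with 1.36 in pancreatic tumors. Ttk, the kinase MPS1, ranged from 4.44 in tumor 10 over 6.15 to 7.35 in tumor 2, against 5.40, 5.04 and 5.14 in pituitary tumors, a difference of 0.86 (SE 0.48, limma adjusted p = 0.353). Cenpf, a kinetochore protein of G2 and mitosis, gave the lowest difference of the list, -0.18 (SE 0.48, limma adjusted p = 0.867). It ranged from 4.93 in tumor 10 over 6.87 to 7.52 in tumor 3, against 6.96, 6.72 and 6.82 in pituitary tumors. Its difference was 0.07 without tumors 10, 11 and 12. Cenpa, Cenpe, Bub1b and Mad2l1 differed by 0.38 to 0.76.

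Ect2, which activates RhoA for the cleavage furrow, had the largest SD of all 44 genes, at 1.42 in pancreatic tumors and 0.32 in pituitary tumors. It ranged from 4.88 in tumor 10 over 7.79 to 9.50 in tumor 2, against 7.83, 8.03 and 7.40 in pituitary tumors, with a difference of -0.06 (SE 0.78, limma adjusted p = 0.979). Kif20a, a kinesin of the central spindle, ranged from 4.59 in tumor 5 over 6.88 to 7.72 in tumor 3, against 5.89, 5.00 and 4.68 in pituitary tumors, a difference of 1.20 (SE 0.67, limma adjusted p = 0.352). Prc1, which bundles the midzone microtubules, ranged from 6.37 in tumor 10 over 8.02 to 8.46 in tumor 3, against 7.84, 7.52 and 7.70, and differed by 0.07 (SE 0.40, limma adjusted p = 0.947). Ube2c, the ubiquitin-conjugating enzyme of the anaphase-promoting complex, ranged from 7.10 in tumor 10 over 8.85 to 10.28 in tumor 11, against 7.40, 7.54 and 7.23 in pituitary tumors. In 7 of 9 pancreatic tumors it lay above all pituitary ones, with a difference of 1.29 (SE 0.59, limma adjusted p = 0.25). Cdc20, an activator of the same complex, differed by 0.83 (limma adjusted p = 0.289).

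Foxm1 and Mybl2, the transcription factors of the G2/M genes, varied less among pancreatic tumors than most of the list. Foxm1 had the smallest SD of the list in pancreatic tumors, 0.14, with values from 6.39 in tumor 1 over 6.69 to 6.83 in tumor 12, against 6.87, 6.69 and 6.48 in pituitary tumors. This holds for its probe set of highest mean. Another ran from 5.24 in tumor 10 to 6.41 in tumor 11, with an SD of 0.35 against 0.07 in pituitary tumors. The remaining Foxm1 probe sets had SDs of 0.13 and 0.17 against 0.22 and 0.17. Mybl2 ranged from 4.69 in tumor 1 over 5.11 to 6.33 in tumor 11, against 5.03, 4.57 and 4.85 in pituitary tumors, so that its mean of 5.16 over all tumors was below that of the median probe set, 5.60. The means of Cdc6 and Melk were also below that mark, and those of the other 41 genes were above it. In single tumors, 14 of the 44 genes lay at or below the median of the array at least once, among them Bub1, Ect2, Ccnb2 and Kif20a at their lowest values.

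How far the genes moved together was measured as their correlation with Mki67 over the 9 pancreatic tumors, with exact two-sided permutation p-values adjusted over 18192 genes. The median Pearson's r of the 43 other genes was 0.80 and the median Spearman's rho 0.85, where the median r of all genes was 0.08. At an unadjusted p under 0.05, 31 genes had a positive r and 1 a negative r, against 4.27% and 2.02% of all genes. After adjustment 1 passed, where 0.0495% of all genes did. This was Mad2l1, a checkpoint protein that restrains CDC20, with r = 0.900 and rho = 0.983 (exact permutation, adjusted p = 0.0334 for r and 0.109 for rho). The median r was 0.82 without tumors 3 and 10, the 2 tumors farthest from the median of Mki67, 0.88 without tumors 10, 11 and 12 and 0.78 without tumors 2, 3 and 4. The r of Mad2l1 was 0.967 without tumors 3 and 10 but no longer passed, with an adjusted p of 0.249 in the exact permutation test over 7 tumors. In any 8 of the 9 tumors it did not pass either.

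The r with Mki67 varied by role. All 24 genes of the mitotic kinases, centromere, spindle and anaphase groups reached an unadjusted p under 0.05 in the exact permutation test, 23 with a positive r, and their median r was 0.86. Of the 17 genes of the G1/S and replication groups, 8 did, all with a positive r, and their median r was 0.57. By rank the gap was smaller, with a median rho of 0.87 in the mitotic groups and 0.73 in G1/S and replication. Foxm1 and Mybl2 were counted in neither class. Closest to Mki67 were Prc1 (r = 0.958, rho = 0.950), Ccna2 (r = 0.950, rho = 0.900) and Cenpf (r = 0.949, rho = 0.917), with adjusted p values of 0.0501, 0.13 and 0.13 for r in the exact permutation test. Without tumors 3 and 10 their r was 0.922, 0.908 and 0.872. The gap between the roles was smaller without tumors 10, 11 and 12, with median r values of 0.90 for the mitotic groups and 0.87 for G1/S and replication, and wider without tumors 2, 3 and 4, at 0.83 and 0.46. Whether the roles differ in r was not tested.

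The same values, averaged by role, show the gap in single tumors and are no second observation of it. Tumors 11 and 12 averaged 1.08 and 0.43 above the mean of all tumors in the mitotic cyclins and kinases and 1.30 and 0.71 in Cdc20 and Ube2c, but 0.14 and -0.17 in the replication genes. Tumor 10, the lowest for Mki67, stood at -1.25 in the mitotic cyclins and kinases and -0.34 in the replication genes, while tumor 5 stood at -1.23 and -0.76. The lower array means of tumors 10, 11 and 12 accompany these values, and their part was not tested. Leukocyte transcripts were highest in tumor 10, with a list mean of 8.10 against 6.46 to 7.19 in the other pancreatic tumors. Stroma transcripts were highest in tumor 5, at 9.15, and next in tumor 10, at 8.55. The other pancreatic tumors had stroma means of 6.38 to 8.35. The part of these tissues in the low values was not tested.

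At the low end were Cdk4 (r = -0.02, rho = -0.02), Cdk6 (r = 0.12, rho = -0.25), Foxm1 (r = 0.12, rho near 0), Mcm2 (r = 0.20, rho = 0.17) and Mybl2 (r = 0.22, rho = 0.22), with unadjusted exact permutation p values from 0.542 up to 0.964. Tpx2, a spindle assembly factor and activator of Aurora A, was the gene with a negative r, -0.83 (rho = -0.63). Its signal was highest in tumor 10, at 6.84, and lowest in tumor 3, at 5.38, the reverse of Mki67. This value depended on the probe set. Of 4 probe sets for Tpx2, 2 gave r values of -0.83 and -0.63 and the other 2 gave 0.81 and 0.86, so that the direction for Tpx2 is not settled by these arrays. Foxm1 likewise gave 0.72 with another probe set, against 0.12 with the one of highest mean.

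**Figure D5:**
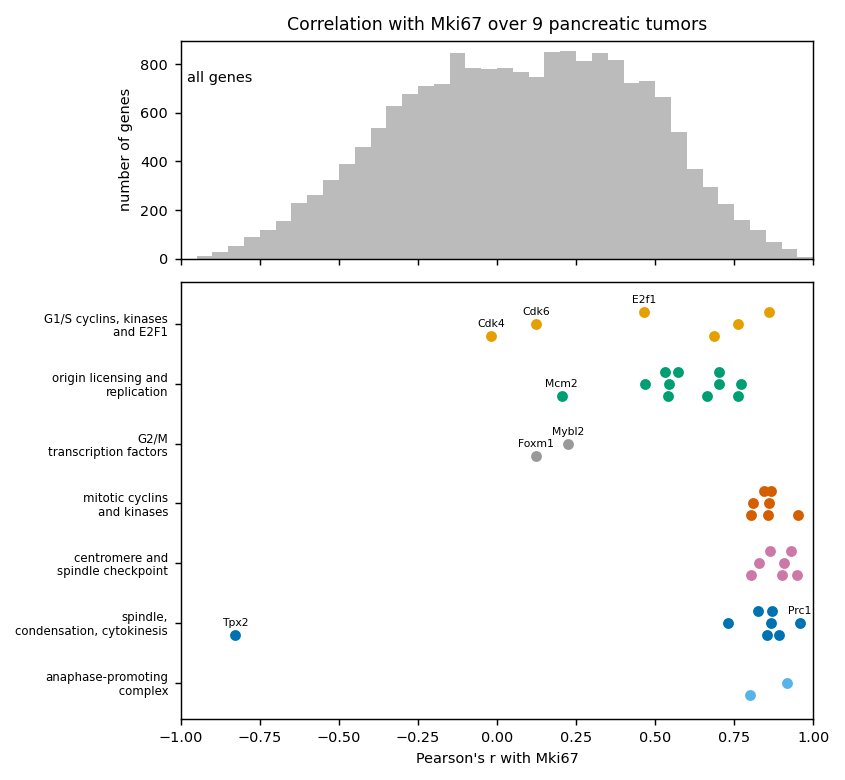
Pearson's r with Mki67 over the 9 pancreatic tumors, as a histogram of all genes (top, number of genes per bin) and as 1 point per gene of the list, grouped by role (bottom). All mitotic points except Tpx2 at -0.83 lie above 0.7, the replication genes spread from 0.20 to 0.77, and the histogram of all genes centres near 0.08.

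Since the mitotic genes moved together, their promoters were searched for elements known to time cell cycle transcription. These are the CHR (TTTGAA), which recruits the DREAM and B-MYB complexes, the CCAAT box (CCAAT), bound by NF-Y, E2F sites (TTCCCGC or TTGGCGC) and the E-box (CACGTG) bound by MYC and MAX dimers. Both strands of the 250 bases before the start site were read from RefSeq promoters (GRCm38.p6), available for 35 of the 44 genes. The 50 bases after the start site and matches that cross it were not searched. The CCAAT box and the second E2F form can share bases, as in ATTGGC. The CHR was present in 9 of 35 promoters, or 25.7%, against 11.9% of the promoters of all 14452 genes, and the CCAAT box in 24, or 68.6%, against 35.7%. E2F sites were present in 7, or 20%, against 8.5%, and the E-box in 3, or 8.57%, against 7.56%. By role, 7 of 21 promoters of the mitotic and G2/M groups held a CHR and 1 held an E2F site, while 1 of 13 promoters of the G1/S and replication groups held a CHR and 5 held an E2F site. The genes with an E-box were Cdk4, Cdk6 and Ttk. Such a match is a description of the letters and no evidence of binding.

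The promoters of Mki67 and Cdk1 are given here, picked after the search because they hold CHR, CCAAT and E2F letters together. Beside them are 2 of the genes closest to Mki67 in r (Prc1 and Cenpf) and 2 genes of replication and G1/S (Mcm5 and Cdk2). Cdk1 was the only 1 of the 21 mitotic and G2/M promoters with an E2F site. The promoters printed are examples and do not stand for their role classes. Capitals mark the matches on either strand, and each runs 5′ to 3′ on the gene's strand and ends 1 base before the start site.
Mki67: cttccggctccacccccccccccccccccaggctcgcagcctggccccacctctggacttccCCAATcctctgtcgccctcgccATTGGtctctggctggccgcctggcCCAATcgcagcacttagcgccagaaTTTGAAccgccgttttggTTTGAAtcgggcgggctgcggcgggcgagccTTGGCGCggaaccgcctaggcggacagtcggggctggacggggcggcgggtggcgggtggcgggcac
Cdk1: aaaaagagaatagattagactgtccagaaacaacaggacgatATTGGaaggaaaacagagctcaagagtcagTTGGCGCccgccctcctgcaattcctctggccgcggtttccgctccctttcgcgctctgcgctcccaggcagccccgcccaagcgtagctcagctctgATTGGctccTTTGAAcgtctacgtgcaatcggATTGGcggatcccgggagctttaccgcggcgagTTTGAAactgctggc
Prc1: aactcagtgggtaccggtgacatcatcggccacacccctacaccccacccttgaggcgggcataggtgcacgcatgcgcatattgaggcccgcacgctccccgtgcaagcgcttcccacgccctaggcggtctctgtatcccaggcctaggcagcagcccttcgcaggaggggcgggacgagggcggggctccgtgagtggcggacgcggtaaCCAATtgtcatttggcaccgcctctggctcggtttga
Cenpf: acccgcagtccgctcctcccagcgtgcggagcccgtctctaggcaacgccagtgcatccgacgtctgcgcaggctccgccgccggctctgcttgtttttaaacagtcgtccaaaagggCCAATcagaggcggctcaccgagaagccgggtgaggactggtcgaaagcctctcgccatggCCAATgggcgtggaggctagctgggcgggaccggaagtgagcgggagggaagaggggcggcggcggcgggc
Mcm5: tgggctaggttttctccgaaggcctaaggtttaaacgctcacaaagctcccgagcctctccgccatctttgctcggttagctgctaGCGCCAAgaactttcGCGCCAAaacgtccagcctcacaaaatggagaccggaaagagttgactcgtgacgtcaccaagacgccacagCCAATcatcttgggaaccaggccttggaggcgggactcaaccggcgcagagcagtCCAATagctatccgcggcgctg
Cdk2: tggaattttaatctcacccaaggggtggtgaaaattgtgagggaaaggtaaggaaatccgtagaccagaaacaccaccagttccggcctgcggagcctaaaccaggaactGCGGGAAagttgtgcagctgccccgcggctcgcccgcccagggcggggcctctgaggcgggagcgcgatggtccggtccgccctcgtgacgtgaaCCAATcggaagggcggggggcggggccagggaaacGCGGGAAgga

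In Mki67, at chr7:135716380-135716629 on the minus strand, a pair of CHR matches began 116 and 98 bases before the start, behind 3 CCAAT boxes and ahead of an E2F site at 67. In Cdk1, at chr10:69352913-69353162 on the minus strand, CHR matches began at 71 and 15, each following a CCAAT box, at 80 and 48. Prc1 (chr7:80294201-80294450, plus strand) had 1 CCAAT box, at 37, and Cenpf (chr1:189688087-189688336, minus strand) had 2, at 132 and 71. Mcm5 (chr8:75109259-75109508, plus strand) carried 2 E2F sites at 164 and 149 upstream of 2 CCAAT boxes, and Cdk2 (chr10:128705052-128705301, minus strand) had E2F sites at 140 and 10 on either side of a CCAAT box at 45. Cenpe held 1 CCAAT box, and Ccne1, with an r of 0.86, held none of these letters in the window.

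A second list of 62 cell cycle genes outside the 45 was read in the same way, and all 62 were measured. After adjustment 0 passed limma's test between the sites, and at an unadjusted p under 0.05 there were 6 higher and 2 lower in pancreatic tumors, where the background was 9.53% of all genes higher and 14% lower. Their median difference was 0.39, with 52 of 62 above 0, against 53.1% of all genes. Racgap1, a partner of Ect2 at the central spindle, had the lowest difference, -1.39, with 7.04 ± 0.94 in pancreatic tumors and 8.44 ± 0.41 in pituitary tumors (SD, n = 9 and 3, limma adjusted p = 0.169). The median r with Mki67 was 0.72, and 3 genes passed after adjustment, as did 0.0495% of all genes. These were Hmmr, a spindle protein (r = 0.975, rho = 0.967), and the condensin subunits Smc2 (r = 0.952, rho = 0.967) and Ncaph (r = 0.959, rho = 0.967), with exact permutation adjusted p values of 0.0334, 0.043 and 0.0446. Without tumors 3 and 10 their r was 0.932, 0.943 and 0.937.

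Of 17 genes of the E2F, retinoblastoma and DREAM families, 1 passed limma's test, and it was lower in pancreatic tumors, where 4.29% of all genes were. Rb1, the retinoblastoma protein that restrains E2F, ranged from 6.42 in tumor 12 over 7.25 to 7.83 in tumor 9, against 8.35, 8.74 and 9.07 in pituitary tumors 6, 7 and 8. All pancreatic tumors lay below all pituitary tumors, as for 5.21% of all genes. The means were 7.22 ± 0.42 (SD, n = 9) in pancreatic tumors and 8.72 ± 0.36 (SD, n = 3) in pituitary tumors, a difference of -1.50 (SE 0.26, limma adjusted p = 0.00721). Without pituitary tumor 8 it was -1.33 and missed the threshold (limma adjusted p = 0.0566), and without pituitary tumors 6 and 8, which held glial transcripts, it was -1.52 (limma adjusted p = 0.221). The last value rests on 1 pituitary array, which is assumed to vary as the pancreatic tumors do. The other Rb1 probe set was at or below the array median in all tumors and differed by 0.00 (limma adjusted p = 0.992). Rbl2, the related p130 of the DREAM complex, averaged 7.62 ± 0.61 in pancreatic tumors and 8.73 ± 0.17 in pituitary tumors (SD, n = 9 and 3), without overlap but not past the threshold (difference -1.11, limma adjusted p = 0.0967). Rbl1, the related p107, differed by -0.61 (limma adjusted p = 0.538). The E2F repressors E2f7 and E2f8 followed Mki67 with r values of 0.85 and 0.89 (rho = 0.83 and 0.95, exact permutation adjusted p = 0.438 and 0.1). The retinoblastoma family was divided. Rbl1 gave an r of 0.81 (rho = 0.90, exact permutation adjusted p = 0.477), while Rb1 and Rbl2 gave 0.22 and 0.14 (rho = -0.18 and 0.05, exact permutation adjusted p = 0.903 and 0.934).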

How the data were processed

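Deposited values are on a log2 scale, with 1 signal for each probe set in each tumor, and the authors had normalized the arrays against each other. The paper's methods name Partek Genomics Suite for normalization and also RMA for the preprocessing of these arrays, without stating which of them made the deposited table, and its effect on low signals is therefore not settled. All 12 columns were matched to a tumor by their titles, and the values were used without further normalization. Symbols came from the platform annotation, with 34741 of 34945 probe sets of 1 symbol matched to RefSeq. The 44 genes had 97 probe sets.

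Sites were compared with lmFit and eBayes of limma 3.58.1 (R 4.3.3) over all 45037 non-control probe sets, at a Benjamini-Hochberg adjusted p of 0.05. Correlations with Mki67 were tested by enumerating all 362880 pairings of the 9 pancreatic tumors, two-sided, in Python 3.11.15. Nothing says that the tumors came from separate mice, so the p-values measure the spread between these samples. Both computations were tested on simulated data. The members, gene lists, motifs and alternatives were chosen with earlier results of these data known. Values per tumor are given for Mki67, for the genes with the largest SD and the largest site difference of each role, for the 3 lowest and 3 highest r, and where 1 tumor stood apart. Promoters were those of the genes with the highest r in each role class that RefSeq's table held, of which 4 are printed, plus 2 picked after the search. Mcm2, Mcm3 and Mad2l1 were described as well after their values were seen, and Racgap1, Hmmr, Smc2, Ncaph and the E2F and retinoblastoma genes beside Rb1 were picked from their lists in the same way. Arrays of normal pancreas were not analysed here.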

Additional observations from a re-analysis of the deposited data

Results flagged for a closer look

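In 3 of the 44 genes, 1 of the 9 pancreatic tumors lay farther from the rest than Dixon's 95% limit allows. These were Cdk6 in tumor 2, with a signal of 8.43 where the next highest was 6.55, Mcm6 in tumor 5, with 6.83 where the next lowest was 8.77, and Pcna in tumor 5, with 8.85 where the next lowest was 10.64. With independent normal values about 1 in 20 genes would be marked in this way by chance. The share marked among all genes of these tumors is not given here.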

How the results depend on the processing

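The count of listed genes higher in pancreatic tumors, 0, was 2 with each gene's probe sets averaged (Mcm2 and Mcm6), 2 with quantile normalization (E2f1 and Mcm3), 4 with array weights (these 4 genes), and 0 to 3 when 1 tumor was left out (1 without tumor 2, 3 without tumor 5). The other settings gave 0, and none was lower in any setting. E2f1 passed with quantile normalization (1.06) and array weights (1.08), Mcm6 with the mean of probe sets (1.37) and array weights (1.88). Over all settings the adjusted p was 0.0069 to 0.966 for E2f1, 0.00148 to 0.802 for Mcm6 and 0.00443 to 0.221 for Rb1 in limma. The upper ends come from leaving out pituitary tumors 6 and 8, which leaves 1 pituitary array, and with 1 tumor left out they were 0.293, 0.273 and 0.0566. The median difference ranged from 0.27 to 0.70 over all settings and was 0.47 to 0.70 with 1 tumor left out. The count correlated with Mki67, 1, was 2 among probe sets above the median probe set (Mad2l1 and Prc1), and 0 with the mean of probe sets, with quantile normalization, without tumors 10, 11 and 12, without tumors 2, 3 and 4, without the 2 tumors farthest from the median of Mki67, with Spearman's rho, and, 0 to 0, with any 1 tumor left out. Mad2l1 passed with median centring and among probe sets above the median probe set and in no other setting (exact permutation adjusted p from 0.0251 to 1), and fewer tumors leave fewer pairings.

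Differences near 0 changed sign. Foxm1 was 0.081 with the mean of probe sets, 0.11 with quantile normalization, 0.0053 with median centring and -0.14 to 0.057 with 1 tumor left out. Cenpf was 0.15 with the mean of probe sets, 0.032 with array weights, 0.073 without tumors 10, 11 and 12 and -0.29 to 0.032 with 1 left out. Ect2 was 0.066 with quantile normalization, 0.27 with array weights, 0.51 without tumors 10, 11 and 12 and -0.28 to 0.30 with 1 left out. Cdk6 was -0.039 with array weights, -0.076 without tumors 2, 3 and 4, -0.20 without pituitary tumors 6 and 8 and -0.11 to 0.36 with 1 left out. Without tumors 2, 3 and 4, Ccne2 was -0.32, Ccna2 -0.049 and Prc1 -0.20, and with 1 left out Ccne2 was -0.10 to 0.56 and Prc1 -0.021 to 0.24. The r of Tpx2 was 0.35 with the mean of probe sets, that of Cdk4 0.038 with median centring, 0.0082 without tumors 10, 11 and 12, 0.46 without tumors 2, 3 and 4, 0.17 without the 2 farthest tumors and -0.23 to 0.20 with 1 left out, and that of Foxm1 -0.053 without tumors 10, 11 and 12 and -0.054 to 0.27 with 1 left out. The cause was not tested. No paired analysis was possible because the labels do not say which arrays share a mouse. Mybl2 has no value among probe sets above the median probe set. With 3 pituitary tumors, the 95% interval of the difference included 0 for 38 of the 44 genes.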
